A study of Mus musculus with 23 samples.

Results

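The potassium channel genes described here are all genes whose symbol starts with Kcn, measured in punches of the mouse nucleus accumbens, the ventral striatal region known for its part in reward and motivation. They were chosen by name, with earlier results of these data known. Every probe set annotated with a single symbol of that form was taken. A gene with several such probe sets was represented by the brightest over the 23 arrays. This gave 97 probe sets and 90 genes, of 22180 genes named on the array. Of the 90, 88 are protein coding and 2, Kcnd3os and Kcnq1ot1, are long non-coding RNAs. A further 4 Kcn probe sets carried the symbols of several genes and were left out. All 90 genes entered every fit, with no filter on low values.

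The 23 mice, of strain C57BL/6 (C57BL/6J in the growth protocol) and about 15 weeks old, had received an adeno-associated virus (AAV) in the nucleus accumbens about 5 weeks before collection. The virus carried a short hairpin RNA against Nr1d1, which encodes the circadian nuclear receptor REV-ERBα, or a scrambled hairpin. The groups were 5 control females, 6 females labelled knockdown, 6 control males and 6 males labelled knockdown, with 1 array per mouse, and the labels call them biological replicates. All 4 groups thus share the strain, the surgery and an AAV. The treatment text speaks of culled litters and of collection on postpartum day 7 for every sample, males included, so the reproductive state of the females is not certain. Not given in the sources used here are the AAV serotype, the promoter that drove the hairpin and the hour of collection. The title of the series links Nr1d1 in this region to reward from social contact and to anxiety, and the comparison of the groups asks which transcripts change when Nr1d1 is targeted.

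Potassium channels let potassium ions leave or enter a cell along their gradient and so set the resting potential, shape the action potential and limit how fast a neuron fires. Voltage-gated channels (Kcna to Kcnd, Kcnh and Kcnq) open on depolarization, inward rectifiers (Kcnj) hold the potential near rest, tandem-pore channels (Kcnk) carry leak current, and Kcnm and Kcnn channels open with calcium. The Kcnf, Kcng, Kcns and Kcnv subunits form no channel of their own and modify Kcnb channels, while Kcnab, Kcne and Kcnip proteins are accessory subunits. Medium spiny neurons, the main neurons of the nucleus accumbens, are known for strong inward rectifier and A-type potassium currents. G protein-gated inward rectifiers are known from cortical and hippocampal excitatory neurons, and Kcnj10 and Kcnj16 channels from astrocytes, which take up potassium.

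The promoters of 4 members that the results turn on are given first, because these members moved together with a marker of cortical excitatory neurons, in either direction. Kcnf1 and Kcnj3 had the smallest p values of the members that were higher on arrays with more of that marker, and Kcnj10 and Kcnj16 encode subunits of 1 astrocytic channel and were both lower. Each sequence is a RefSeq window (GRCm38.p6) from 250 bases before to 50 bases after an annotated start, 5′ to 3′ along the gene, with matches to AGGTCA or its reverse complement TGACCT in capitals. AGGTCA is the half-site that REV-ERB receptors are known to bind. The windows lie at chr12:17176839-17177138 for Kcnf1 (minus strand), chr2:55435720-55436019 for Kcnj3, chr1:172340960-172341259 for Kcnj10 and chr11:110967783-110968082 for Kcnj16, the last 3 on the plus strand. For Kcnj16 the window shown is 1 of 4, picked because it is the only 1 of them that holds a match.
Kcnf1: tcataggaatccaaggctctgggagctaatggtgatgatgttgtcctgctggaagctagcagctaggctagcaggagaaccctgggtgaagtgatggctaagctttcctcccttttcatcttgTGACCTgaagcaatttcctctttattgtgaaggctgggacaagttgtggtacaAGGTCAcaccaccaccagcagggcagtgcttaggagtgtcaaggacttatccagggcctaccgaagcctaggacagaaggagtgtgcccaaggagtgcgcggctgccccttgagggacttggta
Kcnj3: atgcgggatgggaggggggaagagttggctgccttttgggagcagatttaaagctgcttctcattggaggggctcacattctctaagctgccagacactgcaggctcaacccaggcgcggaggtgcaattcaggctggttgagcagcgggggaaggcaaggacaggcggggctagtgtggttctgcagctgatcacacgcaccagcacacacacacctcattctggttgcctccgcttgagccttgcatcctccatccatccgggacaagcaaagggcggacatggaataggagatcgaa
Kcnj10: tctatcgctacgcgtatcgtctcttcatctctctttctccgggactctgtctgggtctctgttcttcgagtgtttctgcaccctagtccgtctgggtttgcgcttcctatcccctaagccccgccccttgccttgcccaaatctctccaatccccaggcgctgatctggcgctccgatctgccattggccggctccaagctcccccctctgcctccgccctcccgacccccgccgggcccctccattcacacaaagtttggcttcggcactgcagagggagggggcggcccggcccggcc
Kcnj16: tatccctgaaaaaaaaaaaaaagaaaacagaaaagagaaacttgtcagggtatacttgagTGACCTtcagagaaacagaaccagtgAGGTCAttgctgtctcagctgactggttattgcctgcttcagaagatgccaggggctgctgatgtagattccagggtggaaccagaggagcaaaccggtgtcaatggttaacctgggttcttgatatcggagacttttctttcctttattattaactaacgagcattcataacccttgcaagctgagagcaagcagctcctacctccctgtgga
The Kcnf1 and Kcnj16 windows each hold 2 matches, 1 in each orientation, and the Kcnj3 and Kcnj10 windows hold 0. RefSeq windows were found for 70 of the 90 members. The motif, searched on both strands, occurred in 6 of their 95 windows (6.32%), against 16.3% of all 32851 windows of the same length. Counted by gene, 6 of 70 members (8.57%) had it, against 18.1% of 27025 genes. Among members with a called slope it was 3 of 15 genes (20.0%) and 3 of 22 windows (13.6%). Apart from Kcnf1 and Kcnj16, the members with a match were Kcna10, Kcnh1, Kcnip4 and Kcnk10. Such a match is a string of letters and not evidence of binding.

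Values are the log2 intensities that the authors deposited, and a difference or slope is called when its adjusted p from limma, over all probe sets, is below 0.05. Array medians were 6.11 to 6.17 in females and 5.84 to 5.88 in males. The labels name no processing run, so a difference of sex and one of processing cannot be told apart. No level is therefore compared between the sexes. The targeted transcript did not fall detectably: Nr1d1 was 10.04 ± 0.07 (SD) in 5 control females and 9.99 ± 0.16 in 6 labelled knockdown (exact permutation p = 0.563), and 9.59 ± 0.20 and 9.58 ± 0.13 in the males (p = 0.926 by the same exact test). The groups are therefore called by their labels. Medium spiny neuron markers were bright on all 23 arrays, with a list mean of 10.23 to 10.96 over 10 genes. Slc17a7, the vesicular glutamate transporter of cortical excitatory neurons, ranged from 8.92 to 11.13 in females and from 4.64 to 10.34 in males. The 4 arrays below 7 were male controls 3, 5 and 6 and labelled knockdown male 6, and they stand apart from the rest.

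The levels of the members covered most of the array's scale. Means over the 23 arrays ran from 4.04 for Kcnu1, a channel of sperm, to 11.22 for Kcnd2, the pore subunit of A-type current in medium spiny neurons. With 66 of the 90 members above the median probe set, 24 lay at or below it, among them 4 of the 5 Kcne genes, Kcnq1 and Kcnu1. Probe sets differ in how well they bind, so these values order probe sets and not transcripts. In 10 families of pore subunits, the probe set with the highest mean belonged to Kcna1 (9.84), Kcnb2 (8.04), Kcnc4 (8.77), Kcnd2 (11.22), Kcnh3 (9.42), Kcnj10 (9.22), Kcnk1 (9.98), Kcnma1 (10.63), Kcnn3 (9.52) and Kcnq5 (10.73), where Kcnb2 was the 1 Kcnb gene measured. Kcnq5 is a subunit of the M-current, Kcnma1 forms the large-conductance calcium-activated channel and Kcnn3 a small-conductance one.

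By subfamily, all 3 Kcnd, all 3 Kcnc, all 3 Kcnab and all 4 Kcnip genes lay above the median probe set, with ranges of 7.53 to 11.22, 7.90 to 8.77, 7.12 to 10.05 and 8.93 to 10.41. The Kcnip proteins bind Kcnd channels and carry them to the membrane. The voltage-gated Kcna genes ran from 5.38 to 9.84, with 7 of 8 above the median probe set, and the ether-à-go-go-type Kcnh genes from 5.43 to 9.42, with 6 of 8. The 14 inward rectifiers (Kcnj) ran from 5.19 to 9.22, with 11 above, and the 13 tandem-pore genes (Kcnk) from 5.01 to 9.98, with 9 above. Among calcium-activated channels, 3 of 5 Kcnm and 3 of 4 Kcnn genes were above, with ranges of 5.11 to 10.63 and 5.69 to 9.52. Of the 3 Kcnq genes, 2 were above and Kcnq1, known from heart and epithelia, stood at 5.41. For Kcnma1 and Kcnq5 a second probe set read 4.54 and 5.44, and the average of both would put these genes at 7.58 and 8.08.

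**Figure D1:**
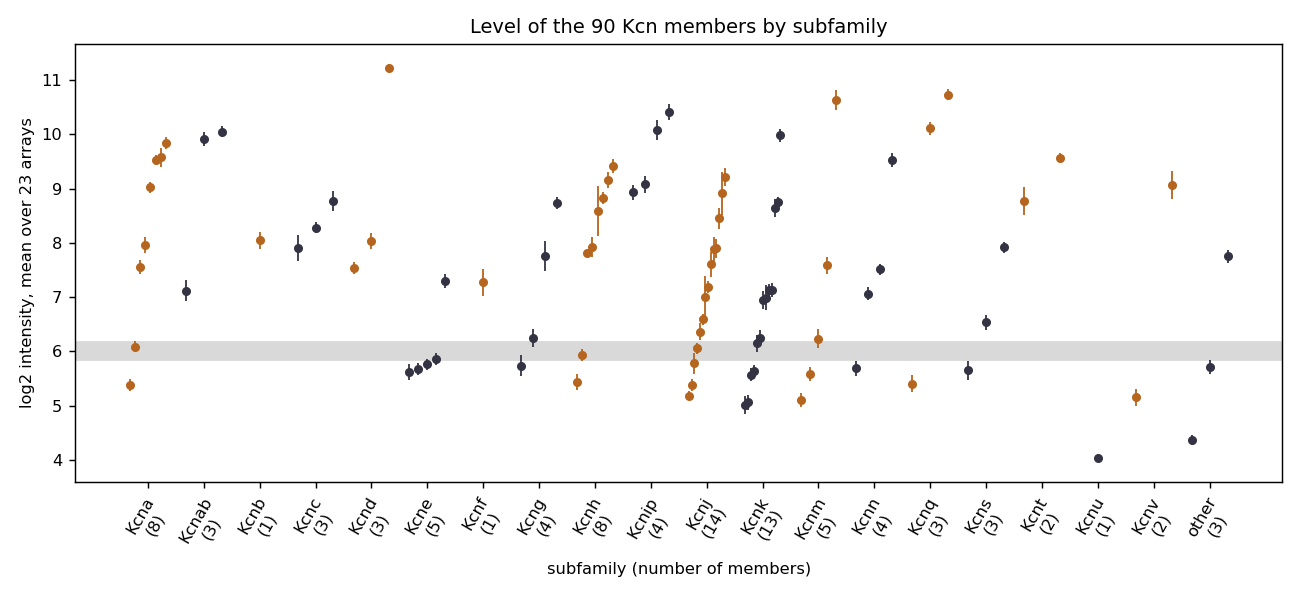
Mean log2 intensity over the 23 arrays (y axis) of each of the 90 Kcn genes, grouped by subfamily with the number of genes in brackets (x axis, alternating colours). Bars are the SD within groups, pooled over the 4 groups, and the grey band spans the medians of the 23 arrays, 5.84 to 6.17; the highest point is Kcnd2 at 11.22 and the lowest is Kcnu1 at 4.04.

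The members differed in how much they varied between mice of the same group. The median SD within groups was 0.134, against 0.12 over all named genes, and single members ran from 0.0733 to 0.462. The 5 with the largest SD were Kcnh7 (0.462), Kcnj3 (0.397), Kcnj6 (0.392), Kcng1 (0.277) and Kcnv1 (0.256). All 5 are expressed by neurons: Kcnh7 forms ether-à-go-go-related channels, Kcnj3 and Kcnj6 are subunits of the G protein-gated inward rectifier, and Kcng1 and Kcnv1 are modifier subunits. At the other end, Kcnd2 varied by an SD of 0.0754. A median of 8.86% of a member's variance within groups went with Slc17a7, against 4.72% over all named genes, and it was more than 50% in 14 of 90 members (15.6%), against 747 of the named genes (3.37%).

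That relation was then fitted for each probe set as a slope on log2 Slc17a7, with 1 mean per group, so that it rests on differences between mice of the same group. A slope was called in 18 of the 90 members (20.0%), while percent called over all 41344 probe sets tested was 3.15, and over the named genes 4.61. In 14 members (15.6%) the slope was positive and in 4 (4.44%) negative, with backgrounds of 1.55 and 1.6 percent. Bright probe sets were called more often in general: above the median probe set, 17 of 66 members (25.8%) were called, against a background of 5.45 percent. The median slope was 0.012 in the members and 0 in the named genes, and 60 members had a positive slope and 30 a negative slope. In bulk tissue, fewer cells of a type and less RNA per cell cannot be told apart.

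Markers of other cell types moved with Slc17a7 as follows. Of the other 8 cortical excitatory neuron markers measured, 5 were called higher (Neurod6, Tbr1, Neurod2, Slc30a3 and Fezf2), with a median slope of 0.364 over the 8. The mean of that marker list, Slc17a7 included, ran from 7.47 to 8.31 in control females, 7.38 to 8.50 in labelled knockdown females, 6.17 to 8.30 in control males and 6.31 to 7.91 in labelled knockdown males. Of 10 medium spiny neuron markers 0 were called, with slopes between −0.029 and 0.024. In females alone all 10 slopes were negative, −0.187 to −0.071, with 7 at an unadjusted p below 0.05 and 0 called (lowest adjusted p = 0.0984, for Drd1), and in males they ran from −0.013 to 0.034. The male minus female difference of slopes passed the test for 0 of these 10 genes and was 0.195 for Drd1, with the lowest adjusted p of the 10 (0.407). Interneuron markers had 2 of 7 called lower, Chat and Slc5a7, both of cholinergic neurons, and astrocyte markers had 1 of 6 called higher, the glutamate transporter Slc1a2 (0.038). Of the oligodendrocyte, microglia and endothelial and mural lists 0 of 16 were called. Intensities have no true zero, so no marker can be said to be at 0. The part of these cells in the members' slopes was not tested.

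**Figure D2:**
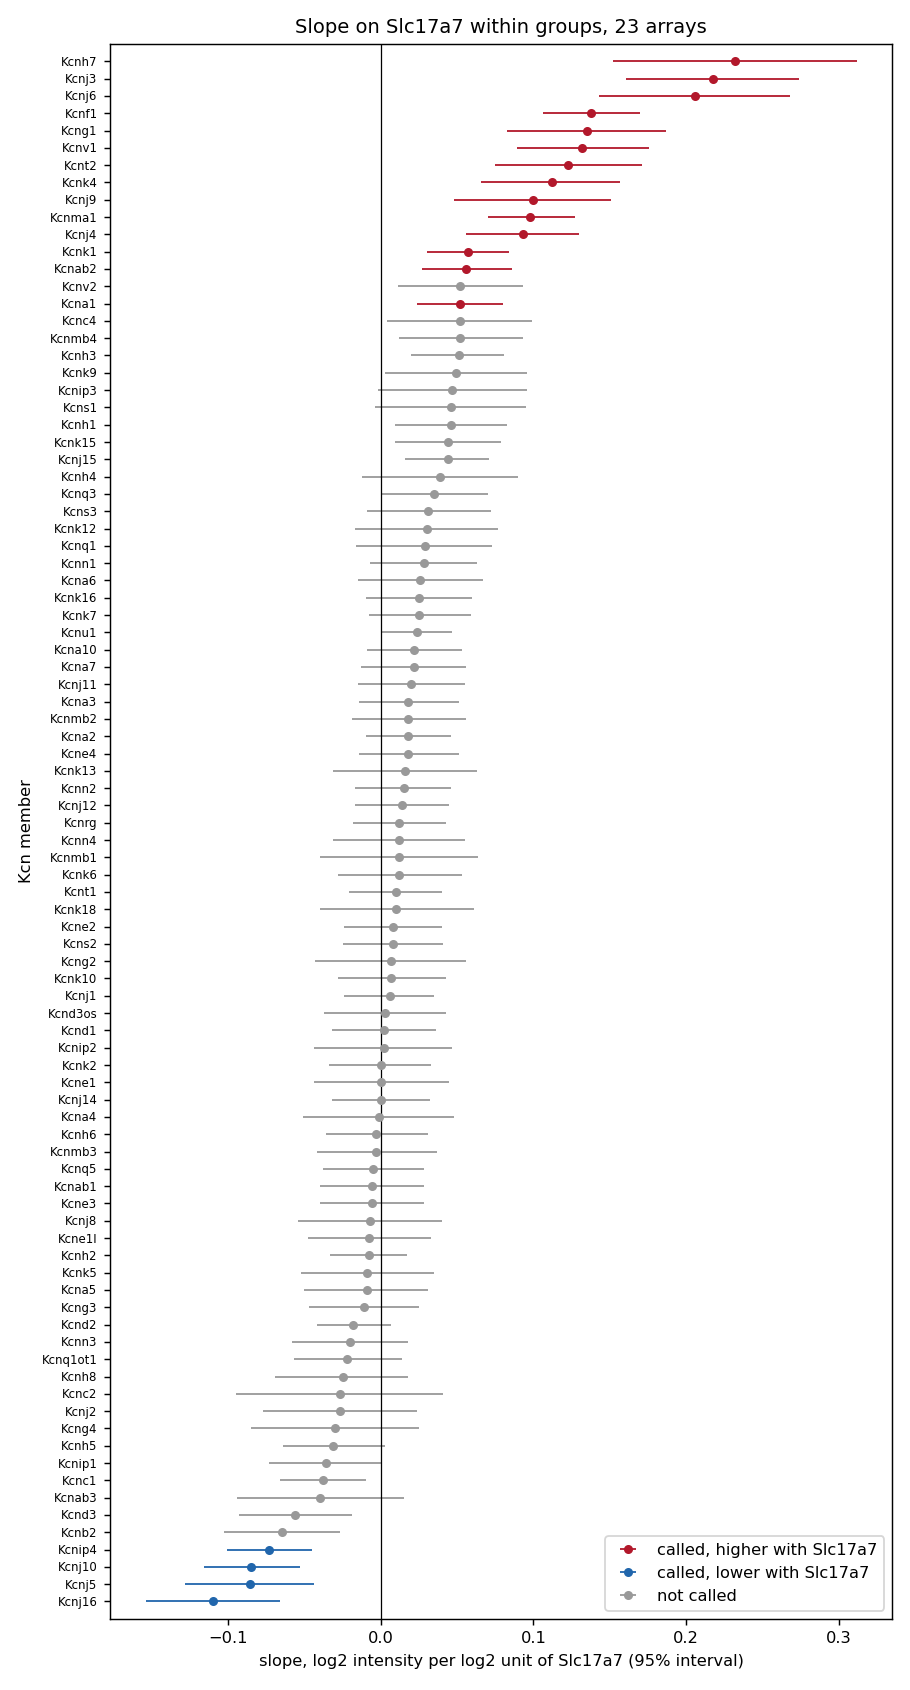
Slope of each of the 90 Kcn genes on Slc17a7 within groups, in log2 intensity per log2 unit of Slc17a7 (x axis), with 95% intervals as bars and genes ordered by slope (y axis). Red points are the 14 genes called higher with Slc17a7, blue points the 4 called lower and grey points the 72 not called; slopes run from −0.110 for Kcnj16 to 0.232 for Kcnh7.

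The subunits of the G protein-gated inward rectifier, through which inhibitory transmitters silence neurons, showed slopes of both signs. Kcnj3 read 8.80, 9.27, 9.62, 9.33 and 9.43 in the 5 control females, and its lowest, median and highest values were 8.73, 9.125 and 9.64 in labelled knockdown females. They were 8.15, 8.38 and 9.40 in control males and 8.21, 8.585 and 9.11 in labelled knockdown males. The 2 high control males, at 9.40 and 9.09, were the 2 with the most Slc17a7 of that group, and the other 4 lay between 8.15 and 8.56. The slope of Kcnj3 was 0.218 (SE 0.027, adjusted p = 6.94e-05), a 1.16-fold higher intensity per doubling of Slc17a7. A second, dimmer probe set of Kcnj3 (mean 5.51) gave 0.048 (SE 0.015, adjusted p = 0.11) and was not called. Its partner Kcnj6 had a slope of 0.206 (SE 0.030, adjusted p = 0.000308), and in control males it ran from 6.37 to 7.59 with the same 2 arrays highest. Kcnj9 had a slope of 0.1 (SE 0.025, adjusted p = 0.0259). The call of Kcnj9 was lost without control male 1 (0.081, adjusted p = 0.157) or control male 2 (0.099, adjusted p = 0.0797). All 3 slopes were positive in each of the 4 groups taken alone.

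Kcnj5, the remaining subunit of that channel and best known from heart, had a negative slope of −0.086 (SE 0.020, adjusted p = 0.0183). It lay below the median probe set, with a mean of 5.78, and its slope was −0.096 in males and 0.010 in females. Without control male 2 it was −0.071 (adjusted p = 0.114) and without control male 6 −0.066 (adjusted p = 0.121). Kcnj4, a strong inward rectifier of forebrain neurons, had a slope of 0.093 (SE 0.018, adjusted p = 0.00341). Without the 4 males below 7 the slope of Kcnj4 was as large, 0.094, but not called (adjusted p = 0.292). Kcnj2, another strong inward rectifier of medium spiny neurons, had a slope of −0.027 (SE 0.024, adjusted p = 0.716) and was named after its value was seen. The slope of Kcnj2 was −0.187 (SE 0.044, adjusted p = 0.128) in females alone and −0.011 (SE 0.028) in males alone. Its male minus female difference, 0.176, was not called (adjusted p = 0.746).

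Of the modifier subunits, Kcnf1, Kcnv1 and Kcng1 were called higher, and Kcnf1 had the smallest p value of all members. Kcnf1 read 7.39, 7.53, 7.67, 7.56 and 7.52 in control females and 7.28, 7.48 and 7.65 (lowest, median, highest) in labelled knockdown females. In control males these 3 values were 6.69, 6.895 and 7.56, and in labelled knockdown males 6.67, 7.155 and 7.35. The 4 males below 7 in Slc17a7 held the 4 lowest Kcnf1 values of all arrays, 6.67 to 6.82. The slope of Kcnf1 was 0.138 (SE 0.016, 95% interval 0.106 to 0.170, adjusted p = 2.01e-05), and it was 0.161, 0.154, 0.131 and 0.146 in the 4 groups. Kcnv1 had a slope of 0.132 (SE 0.021, adjusted p = 0.000664) and Kcng1 of 0.135 (SE 0.025, adjusted p = 0.00247). Of the other 7 genes of the Kcng, Kcns and Kcnv families 0 were called, with slopes from −0.030 for Kcng4 to 0.052 for Kcnv2.

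Kcnh7 had the steepest slope of the members, 0.232 (SE 0.039, adjusted p = 0.00105), or 1.17-fold per doubling of Slc17a7. Its values were 8.34, 8.98, 9.28, 8.93 and 9.12 in control females and 8.23, 8.655 and 9.35 (lowest, median, highest) in labelled knockdown females. They were 7.84, 8.07 and 9.35 in control males and 8.04, 8.19 and 8.85 in labelled knockdown males. Among males with little Slc17a7 the values of Kcnh7 were flat, and above a Slc17a7 value of about 9 they rose steeply, so a straight line is a coarse summary of this gene. The other 7 Kcnh genes had slopes between −0.031 and 0.051 and 0 were called.

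Kcnma1, the pore subunit of large-conductance calcium-activated channels, had a slope of 0.098 (SE 0.014, adjusted p = 0.000186), positive in each group, and its dim second probe set one of 0.018 (SE 0.018, adjusted p = 0.762). In control males Kcnma1 ran from 10.19 to 10.84, and the highest 2 arrays were again those with the most Slc17a7. Of its 4 accessory Kcnmb genes 0 were called, with slopes from −0.003 to 0.052. Kcnt2, a sodium-activated channel subunit, had a slope of 0.123 (SE 0.023, adjusted p = 0.00278), while Kcnt1 had one of 0.010 (SE 0.015). The tandem-pore genes Kcnk4 and Kcnk1 had slopes of 0.112 (SE 0.022, adjusted p = 0.00405) and 0.057 (SE 0.013, adjusted p = 0.0145). The axonal channel gene Kcna1 and the accessory subunit gene Kcnab2 complete the 14, with slopes of 0.052 (SE 0.013) and 0.056 (SE 0.014). Kcnab2 falls outside the naming rule and is named because it completes the count. Both calls depended on single mice: the slope of Kcna1 was 0.041 to 0.051 (adjusted p from 0.0502 to 0.177) without control male 2 or 6 or labelled knockdown male 4 or 6. That of Kcnab2 was 0.048 to 0.059 (adjusted p from 0.0526 to 0.136) without control male 1, 2 or 6, labelled knockdown male 3 or 6 or labelled knockdown female 2. Of the Kcnb, Kcnc, Kcnd, Kcne, Kcnn, Kcnq and Kcns families, 22 genes in all, 0 were called.

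Of the 4 negative slopes, Kcnj10 and Kcnj16 belong to the potassium uptake channel of astrocytes. Kcnj10 read 9.18, 9.17, 9.18, 9.27 and 9.35 in control females and 9.03, 9.26 and 9.37 (lowest, median, highest) in labelled knockdown females. In males the 3 values were 8.85, 9.255 and 9.41 in controls and 8.95, 9.195 and 9.50 in those labelled knockdown. The lowest 2 control males, at 8.85 and 9.02, were those with the most Slc17a7. The slope of Kcnj10 was −0.085 (SE 0.015, adjusted p = 0.00181), and that of Kcnj16 was −0.110 (SE 0.021, adjusted p = 0.00338). Kcnj16 read 7.75, 7.82, 7.91, 8.02 and 8.10 in control females, and ran from 7.31 to 8.16 in control males with the same 2 arrays lowest. Both slopes had the opposite sign in control females alone, 0.021 and 0.129, and the 6 astrocyte markers had a median slope of −0.011.

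Kcnip4, a calcium-binding partner of Kcnd channels, had a slope of −0.073 (SE 0.013, adjusted p = 0.00261), with 0.004 in control females and −0.034 to −0.085 in the other groups. Kcnb2, a delayed rectifier, came next at −0.065 (SE 0.018) but did not pass (adjusted p = 0.0586), and leaving out single mice moved it both ways. Kcnb2 was at −0.087 (adjusted p = 0.0111) without control male 1, −0.072 (adjusted p = 0.048) without control male 3 and −0.040 (adjusted p = 0.306) without control male 2. The A-type channel subunits Kcnd2 and Kcnd3, with which Kcnip4 assembles, had slopes of −0.018 (SE 0.012) and −0.056 (SE 0.018) and were not called. All 4 negative calls were lost without the 4 males below 7 in Slc17a7, where the slopes were −0.093 for Kcnj10, −0.079 for Kcnj16, −0.057 for Kcnip4 and −0.067 for Kcnj5. Of the 14 positive calls 10 were kept without those arrays, each with a larger slope than over all 23, from 0.118 for Kcnab2 to 0.401 for Kcnj3, 0.422 for Kcnj6 and 0.524 for Kcnh7. The calls of Kcnk4, Kcnk1 and Kcnj4 were lost although their slopes, 0.148, 0.091 and 0.094, were no smaller than over all arrays. That of Kcna1 was lost at 0.043, and Kcnc4, Kcnk9 and Kcnmb4 were gained.

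**Figure D3:**
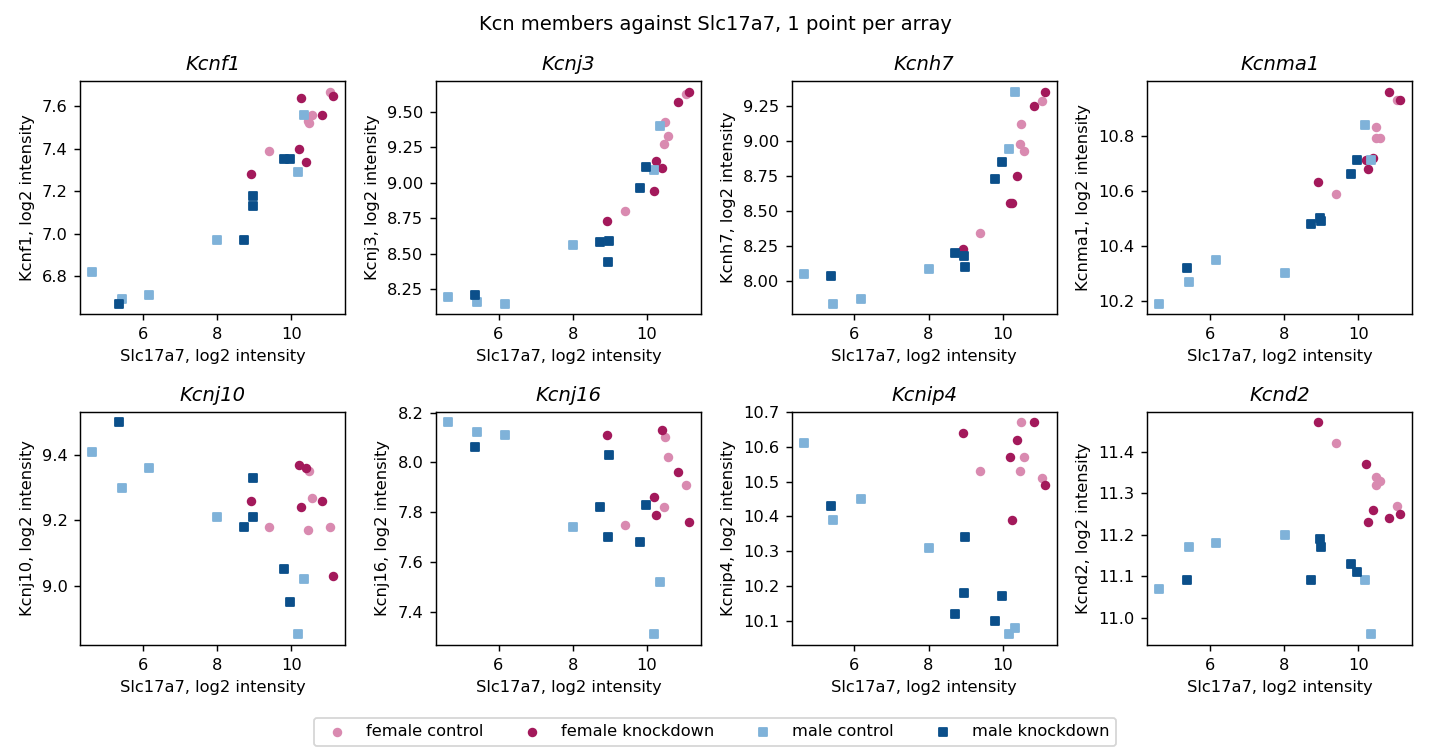
Log2 intensity of 8 Kcn genes (y axes, each with its own scale) against log2 intensity of Slc17a7 (x axes), 1 point per array; circles are females, squares males, light colours controls and dark colours arrays labelled knockdown. Kcnf1, Kcnj3, Kcnh7 and Kcnma1 are higher on arrays with more Slc17a7, and Kcnj10, Kcnj16 and Kcnip4 are lower among males. Kcnd2 was not called, with a slope of −0.018 over all arrays, −0.102 in females alone and −0.009 in males alone. The 4 squares below 7 are the males that stand apart.

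The slopes were then fitted in each sex alone. In the 11 females 4 members were called, Kcnh7 (0.539), Kcnj3 (0.448), Kcnj6 (0.451) and Kcnc4 (0.294), with a background of 0.414 percent of all probe sets. Kcnc4 is a voltage-gated subunit of fast channels and was not called over all 23 arrays (0.052, adjusted p = 0.303). Medium spiny neuron markers, Drd1 (−0.187), Drd2 (−0.174) and Foxp1 (−0.173) among them, had negative slopes on these same 11 arrays, and 4 of 8 cortical markers were called higher. The part of either list in the 4 calls was not tested. In the 12 males 11 members were called, with a background of 1.22 percent: Kcnf1, Kcnj3, Kcnj6, Kcnma1, Kcnj10, Kcnj16, Kcnip4, Kcnh7, Kcng1, Kcnv1 and Kcnj4. The slopes of Kcnh7, Kcnj3 and Kcnj6 in males were 0.201, 0.195 and 0.181. Tested directly, the male minus female difference of slopes was called in 0 of 90 members by limma (1 probe set in all, 0.00242 percent), with 22 members (24.4%) at an unadjusted p below 0.05 against 6.23 percent of all probe sets. Kcnc4 had the lowest adjusted p of the members, with a difference of −0.267 (SE 0.056, adjusted p = 0.173) and a male slope of 0.027. For Kcnj3 the difference was −0.253 (adjusted p = 0.472), for Kcnj6 −0.269 (adjusted p = 0.496) and for Kcnh7 −0.338 (adjusted p = 0.522). The 22 hold differences of both signs, and over all 90 members 39 were positive and 51 negative. Among the positive ones was Kcnq5 (0.138, adjusted p = 0.524), with slopes of −0.131 in females and 0.007 in males. Another was Kcnd2 (0.093, adjusted p = 0.667), with slopes of −0.102 in females and −0.009 in males. Slc17a7 was spread over a wider range in males, so the slopes of the sexes rest on different parts of its scale.

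Of the 1301 probe sets called over all arrays, 1029 had a slope of the same sign in all 4 groups. Of the 18 members called, 12 had, a smaller share. The 12 were Kcnh7, Kcnj3, Kcnj6, Kcnf1, Kcng1, Kcnv1, Kcnt2, Kcnk4, Kcnj9, Kcnma1, Kcnk1 and Kcnab2. The other 6 were the 4 with a negative slope, Kcnj4 and Kcna1, each with 3 of 4 groups on its side.

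Labelled knockdown was compared with control within each sex. No member was called: in females, males, the average of both and the difference between the sexes, limma called 0 of 90 members, and percent called over all 41345 probe sets was 0 in each. At an unadjusted p below 0.05 there were 3 members (3.33%) in females against 5.86 percent of all probe sets, 2 (2.22%) in males against 4.71 percent, 3 (3.33%) in the average against 4.71 percent and 5 (5.56%) in the difference against 5.7 percent. The shares of members were thus at or below those of all probe sets. The median difference was −0.002 in females and 0.014 in males, against 0 and 0.003 over the named genes. Member differences ran from −0.34 to 0.18 in females and from −0.22 to 0.17 in males. The median interval of a member reached 0.17 to either side of its difference in females and 0.16 in males. The groups overlapped in both sexes for each of the 13 members named for a contrast.

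The largest difference in females was that of Kcnab3, an accessory subunit of Kcna channels. It read 7.11, 7.39, 7.07, 7.20 and 7.41 in controls, and 6.65, 6.88 and 7.18 (lowest, median, highest) in the 6 females labelled knockdown. All 6 lay below the control mean, and the groups overlapped. The difference was −0.34 (SE 0.11, 95% interval −0.58 to −0.11, adjusted p = 0.839), or 0.79-fold. In males Kcnab3 read 6.94, 7.235 and 7.52 in controls and 6.81, 7.16 and 7.26 in those labelled knockdown, a difference of −0.14 (SE 0.11), and the average of both sexes was −0.24 (SE 0.08, adjusted p = 0.980). A second, dimmer probe set of Kcnab3 gave an average of −0.01 (SE 0.07).

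The other members with the smallest p values in females were Kcna3, Kcnj1, Kcnd3 and Kcns1. Kcna3, a voltage-gated subunit, read 9.01, 9.0, 9.25, 9.03 and 9.0 in controls and 9.13, 9.18 and 9.38 (lowest, median, highest) in labelled knockdown females, a difference of 0.16 (SE 0.07, adjusted p = 0.846). Without control female 3, the one high control, the difference was 0.21. Kcnj1, a renal inward rectifier with a mean of 5.19, differed by 0.13 (SE 0.06), Kcnd3 by −0.16 (SE 0.09) and the modifier subunit gene Kcns1 by −0.20 (SE 0.11).

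**Figure D4:**
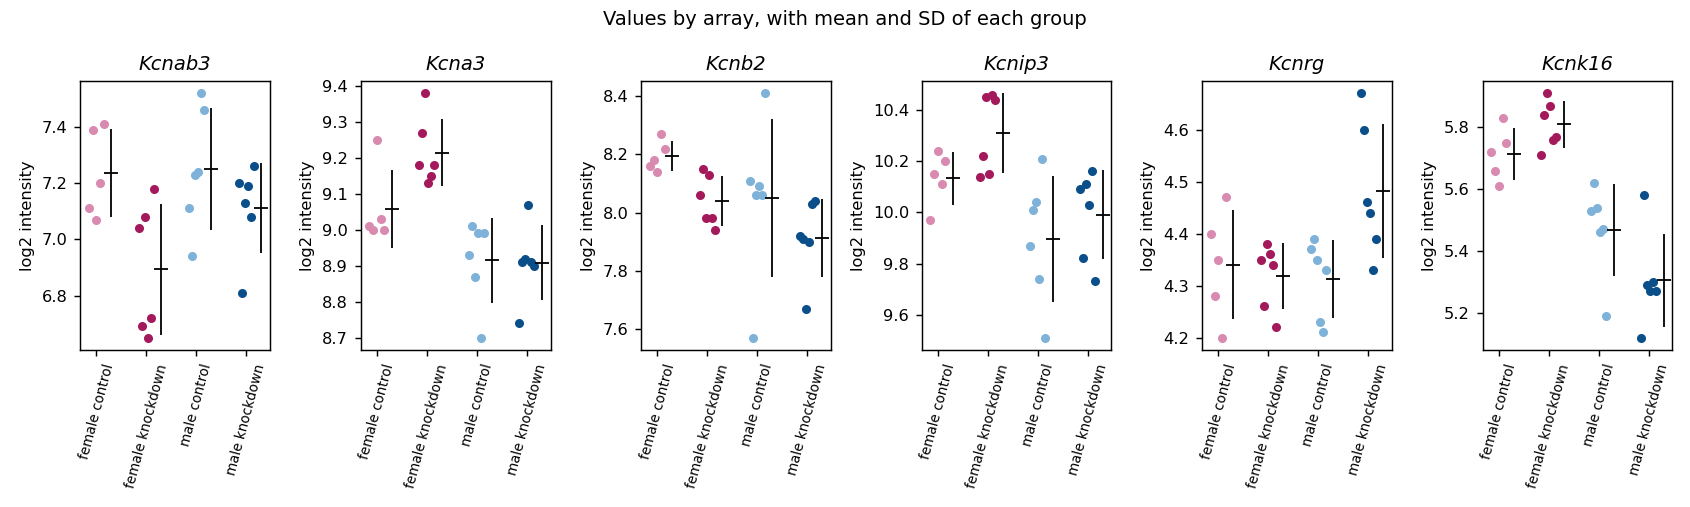
Log2 intensity of 6 Kcn genes (y axes, each with its own scale) in the 4 groups (x axes), 1 point per mouse, with the group mean as a tick and the SD as a bar to its right. Labelled knockdown and control overlap in both sexes for each gene; the 6 labelled knockdown females of Kcnab3 run from 6.65 to 7.18 and the 5 control females from 7.07 to 7.41.

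In males the smallest p value belonged to Kcnrg, which encodes a soluble regulator of Kcna channel assembly. Kcnrg read 4.21, 4.34 and 4.39 (lowest, median, highest) in controls and 4.33, 4.45 and 4.67 in the 6 males labelled knockdown. All 6 were above the control mean, and the groups overlapped. The difference was 0.17 (SE 0.06, adjusted p = 0.996), and the values are among the dimmest of the members. Kcnk16, a tandem-pore gene known from pancreas, ran from 5.19 to 5.62 in controls and from 5.12 to 5.58 in labelled knockdown males, with a difference of −0.16 (SE 0.07).

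Kcnj5 differed by −0.22 (SE 0.11) in males, and by −0.12 without control male 6, whose value of 6.06 was the highest of the males, and −0.08 without the 4 males below 7 in Slc17a7. Kcnn3, the small-conductance calcium-activated channel, differed by 0.14 (SE 0.07), by 0.06 without control male 1, the lowest at 8.88, and by 0.25 without those 4 males. Kcnu1 differed by 0.09 (SE 0.05), and by 0.04 without the 4. Slc17a7 itself was 7.46 ± 2.44 (SD) in 6 control males and 8.63 ± 1.68 in 6 labelled knockdown, a difference of 1.17 (exact permutation p = 0.372). In females that difference was −0.11 (exact permutation p = 0.790). With Slc17a7 as a covariate, centred within groups or as measured, the count of members called by limma was 0 in every contrast.

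Averaged over both sexes, the smallest p values after Kcnab3 belonged to Kcnu1 (0.08, SE 0.04), Kcnb2 (−0.15, SE 0.07), Kcnip3 (0.13, SE 0.07) and Kcnrg (0.07, SE 0.04), with adjusted p = 0.980 each. Kcnip3 binds calcium and acts both on Kcnd channels and as a transcription factor. For Kcnb2 all 6 labelled knockdown mice of each sex lay below the control mean of their sex, and the groups overlapped in both. Kcnb2, Kcnab3 and Kcnrg were named for small p values in these contrasts, so such counts of mice are no further support. The male minus female difference had its smallest p values in Kcnk16 (−0.26, SE 0.10), Kcnj1 (−0.18, SE 0.08), Kcnrg (0.19, SE 0.08), Kcns1 (0.32, SE 0.15) and Kcnj4 (0.32, SE 0.15), with adjusted p from 0.85 to 0.872.

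**Figure D5:**
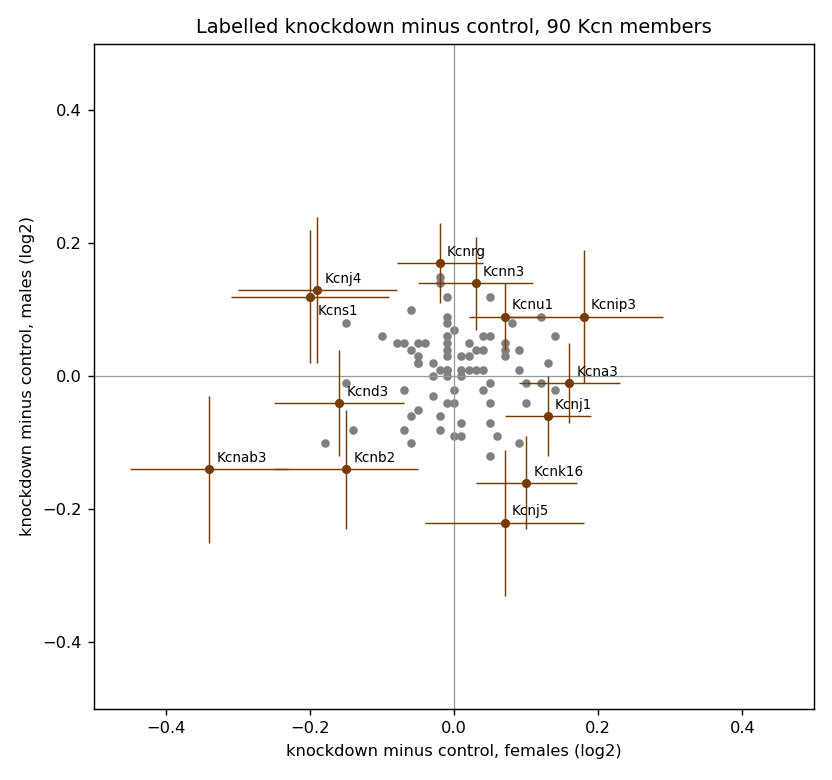
Labelled knockdown minus control in log2 units in females (x axis) and males (y axis) for the 90 Kcn genes, 1 point per gene. Brown points are the 13 genes named for a contrast, with SE bars in both directions, and none of the 90 was called; Kcnab3 lies farthest from 0 in females at −0.34 and Kcnj5 in males at −0.22.

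Genes of the same channel complexes whose symbols do not start with Kcn were read from the same fits, and 14 of 15 listed were measured. Of these, 0 were called in the knockdown contrasts, with Amigo1 at −0.13 (SE 0.06) and Hcn2 at −0.07 (SE 0.06) in females, Lrrc52 at 0.22 (SE 0.10) and Lgi1 at 0.08 (SE 0.05) in males, and Lrrc55 at −0.14 (SE 0.08) in the average. Amigo1 is an accessory subunit of Kcnb channels, Hcn2 a hyperpolarization-activated channel, Lrrc52 and Lrrc55 are accessory subunits of Kcnu1 and Kcnma1 channels, and Lgi1 is a secreted protein linked to Kcna channels. The slope on Slc17a7 was called in 2 of the 14, both lower, and in 0 higher. Cntnap2, which clusters Kcna channels along axons, had a slope of −0.076 (SE 0.013, adjusted p = 0.00183), and of −0.173 without the 4 males below 7 in Slc17a7. Dpp6, an accessory subunit of Kcnd channels, had one of −0.041 (SE 0.011, adjusted p = 0.0317), which was not called without the 4 males below 7 (−0.059, adjusted p = 0.309) nor without control male 1, 2, 3 or 5 (−0.029 to −0.041, adjusted p from 0.0523 to 0.217). The highest were Abcc8, the sulfonylurea receptor of ATP-sensitive channels, at 0.037 (SE 0.017) and Lgi1 at 0.028 (SE 0.012), neither called.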

How the data were processed

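Gene expression was measured on whole-transcript arrays, with 150 ng of total RNA per sample, per the labels' protocols. The deposited log2 intensities (41345 probe sets, 23 arrays) were made by the authors with Transcriptome Analysis Console, per the submitters' processing notes; its version and normalization and the build: not given in the sources used here. Precision is limited by the number of arrays, and signal over background was not used. The annotation table gave 23521 probe sets 1 symbol, 1814 several and 16010 none; 23328 were matched by Entrez number to GRCm38.p6, which changed 0 symbols.

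limma 3.58.1 (R 4.3.3) fitted all arrays with 1 mean per group, as deposited (19 residual and 3.244 prior degrees of freedom). A further fit added Slc17a7 centred within its group (18 and 3.202). Tests were two-sided, with Benjamini-Hochberg adjustment over all probe sets and a threshold of 0.05. Intervals are 95%. Nr1d1 and Slc17a7 were compared by exact permutation, which can reach 0.00216. The scripts were tested on simulated data.

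The members and lists were chosen with earlier results of these data known. Named genes are Nr1d1, Slc17a7, the members called or, where fewer than 5 were, the 5 with the smallest p in a contrast or slope direction (2 for partners), at most 12 higher and 8 lower slopes, the brightest member per pore family and the 5 with the largest SD. The p values measure spread among mice of the same group. Alternatives covered normalization, filters, covariate, arrays, variance prior, weights, replicate block and leaving out each array.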

Additional observations from a re-analysis of the deposited data

Results flagged for a closer look

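In the 42 genes named, each in 4 groups (168 sets), 11 single values lay far from the rest of their group. The gap was large against the group's whole range, and the same array can appear for several genes. Chance alone marks about 1 in 20 such sets. Among the potassium channel genes these were Kcna3 in control female 3 (9.25, nearest other 9.03), Kcnn3 in control female 4 (9.57, nearest 9.69) and in control male 1 (8.88, nearest 9.32), and Kcnq5 in control female 1 (11.01, nearest 10.87). In males they were also Kcns1 in labelled knockdown male 1 (6.16, nearest 5.76), Kcnk16 in control male 6 (5.19, nearest 5.46) and Kcng1 in labelled knockdown male 6 (7.12, nearest 7.61). That last mouse also stood apart in Slc17a7 (5.37, nearest 8.72) and in Cntnap2 (10.90, nearest 10.69). Outside these, Lrrc52 in control female 5 read 5.61 (nearest 5.32) and Nr1d1 in control female 4 read 9.93 (nearest 10.05).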

How the results depend on the processing

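Differences between labelled knockdown and control gave 0 called members under every alternative run. The 18 called slopes (3.15 percent of all probe sets) became 4 in female arrays alone, 3 of them among the 18 (0.414 percent). Male arrays alone gave 11 (1.22 percent), control arrays only 5 (0.433 percent) and labelled knockdown arrays only 0 (0.0653 percent). In the last, 20 members had an unadjusted p below 0.05 by limma, and a background for that count is not given here. These fits hold fewer arrays. All 18 slopes kept their sign in each of these except Kcnj5, at 0.010 in female arrays alone. Leaving out each array gave 14 to 19 calls (1.99 to 3.48 percent of all probe sets), with 14 without control male 2. Added after seeing the data, the fit without the 4 males below 7 in Slc17a7 gave 13 calls, 10 of them among the 18 (2.03 percent of all probe sets). Linear Slc17a7 gave 16, with 12 among the 18 (3.5 percent), and the cause was not tested. Ranks of Slc17a7 gave 14, with 12 among the 18 (2.85 percent). The fit without the 2 most extreme arrays gave 14, with 13 among the 18 (1.34 percent). Array weights gave 16, all among the 18 (2.45 percent). The mean of the other cortical markers gave 18, with 16 among the first 18 (4.16 percent). Without single mice, Nr1d1 differences ran from −0.09 to 0 in females and −0.05 to 0.04 in males, and those of Slc17a7 from −0.35 to 0.17 and 0.61 to 1.82.

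Arrays with the same replicate number correlated with a median r of −0.00799 (−0.243 to 0.322), 7 of 33 pairs above 0.1. Arrays with different numbers had a median r of −0.00418 (−0.377 to 0.315), 31 of 165 pairs above 0.1. This check showed no sign that the numbers pair the mice. With the replicate number as a block 13 of the 18 slopes were called (2.6 percent of all probe sets), and 0 knockdown differences.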
